A study of Mus musculus with 8 samples.

Results

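The Notch receptors and their membrane-bound ligands were examined in ventricles of mouse embryos at embryonic day 15.5 (E15.5). The set holds 8 genes, defined by symbol and with no threshold on measured values, although earlier results of these data were known when the family was chosen. They are the receptors Notch1, Notch2, Notch3 and Notch4, and the ligands Dll1, Dll4, Jag1 and Jag2. All 8 were in the table of 53465 genes, and all 8 were among the 15388 genes with enough counts to be tested. RNA-seq was carried out on 8 libraries made from ventricle tissue, each described as 1 ventricle. Of these, 4 were labelled WT and 4 were labelled Flox, with the genotype Nrg-1flox;Cdh5-CreERT2. In such animals a Cre recombinase that needs tamoxifen for its activity is driven by the promoter of Cdh5, the endothelial cadherin, and is meant to remove floxed sequence of Nrg1, which encodes the growth factor neuregulin-1. The tamoxifen dose and day, the number of floxed alleles and any allele carried by the WT embryos are not given in the sources used here. The model therefore concerns endothelial and endocardial cells, whereas the RNA came from every cell of the ventricle.

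Notch receptors are transmembrane proteins that are activated by ligands on neighbouring cells. Binding of a Delta-like or Jagged ligand, followed by endocytosis of the ligand, exposes the receptor to ADAM proteases and then to γ-secretase, and the released intracellular domain enters the nucleus and joins the DNA-binding protein RBPJ to switch on genes of the Hey and Hes families. In the embryonic ventricle, Notch1 signalling in the endocardium is required for the growth of the trabeculae and for the later compaction of the wall, and Dll4, Jag1 and Jag2 serve as its ligands. Notch pathway activity lies upstream of neuregulin signalling from endocardium to cardiomyocytes during trabeculation. The comparison asked whether RNA of the receptors and ligands differed between ventricles labelled WT and Flox.

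Library totals ranged from 16761763 to 24144272 expected counts, and levels below are in CPM, that is, relative to the library total after scaling by TMM factors of 0.988 to 1.01. The ventricular light chain Myl2 was abundant in every library, with means of 4988 ± 56.3 CPM for WT and 5044 ± 288 CPM for Flox (SD, n = 4). The targeted gene went against its label. Means of Nrg1 were 4.87 ± 0.636 CPM for WT and 6.17 ± 0.611 CPM for Flox (SD, n = 4), and the log2 fold change of Flox over WT was 0.34 (SE 0.120, 95% confidence interval 0.08 to 0.60, edgeR adjusted p = 0.311). Libraries labelled Flox therefore showed no loss of Nrg1 RNA at the gene level, and the directions below are those of the labels only. The libraries also differed in sex-linked RNA. Xist ranged from 0.176 to 206 CPM in WT and from 103 to 327 CPM in Flox libraries, and the sum of 4 Y-linked genes from 69.3 to 171 CPM and from 42.9 to 120 CPM, so that RNA of both kinds was present in 7 of the 8 libraries although each was described as 1 ventricle.

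All 4 ligands had lower mean levels in the Flox libraries, while differences of the 4 receptors were smaller. None of the 8 genes passed the false discovery rate (FDR) of 0.05 in edgeR's quasi-likelihood test, with p-values adjusted over all 15388 genes, of which 81 (0.526%) passed. At an unadjusted p below 0.05 there were 4 of the 8, all of them ligands, where 10.5% of all tested genes lay below that value. Leaving out 1 library changed that number. Without WT library 2 there were 6 of the 8, of which 3 were ligands, against 9.98% of the genes tested then. Without Flox library 3 there were 2 of the 8, of which 2 were ligands, against 8.16% of the genes tested then. The values of WT and Flox libraries did not overlap for 2 of the 8, Dll4 and Jag1, against 6.05% of all tested genes. Of the other tests, DESeq2 called 1 member, Dll4, where it called 1.37% of all genes with an adjusted p. The likelihood ratio test of edgeR called 2, Dll4 and Jag1, where it called 1.57% of all tested genes, and limma voom called 0, where it called 0.37%. The quasi-likelihood test called Dll4 and Jag1 without a filter on low counts (1.15% of all genes), and Dll4 at FDR 0.1 (1.23%). The median log2 fold change was -0.08 over the receptors and -0.26 over the ligands, and -0.0012 over all tested genes, of which 50.6% were lower in Flox libraries.

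**Figure D1:**
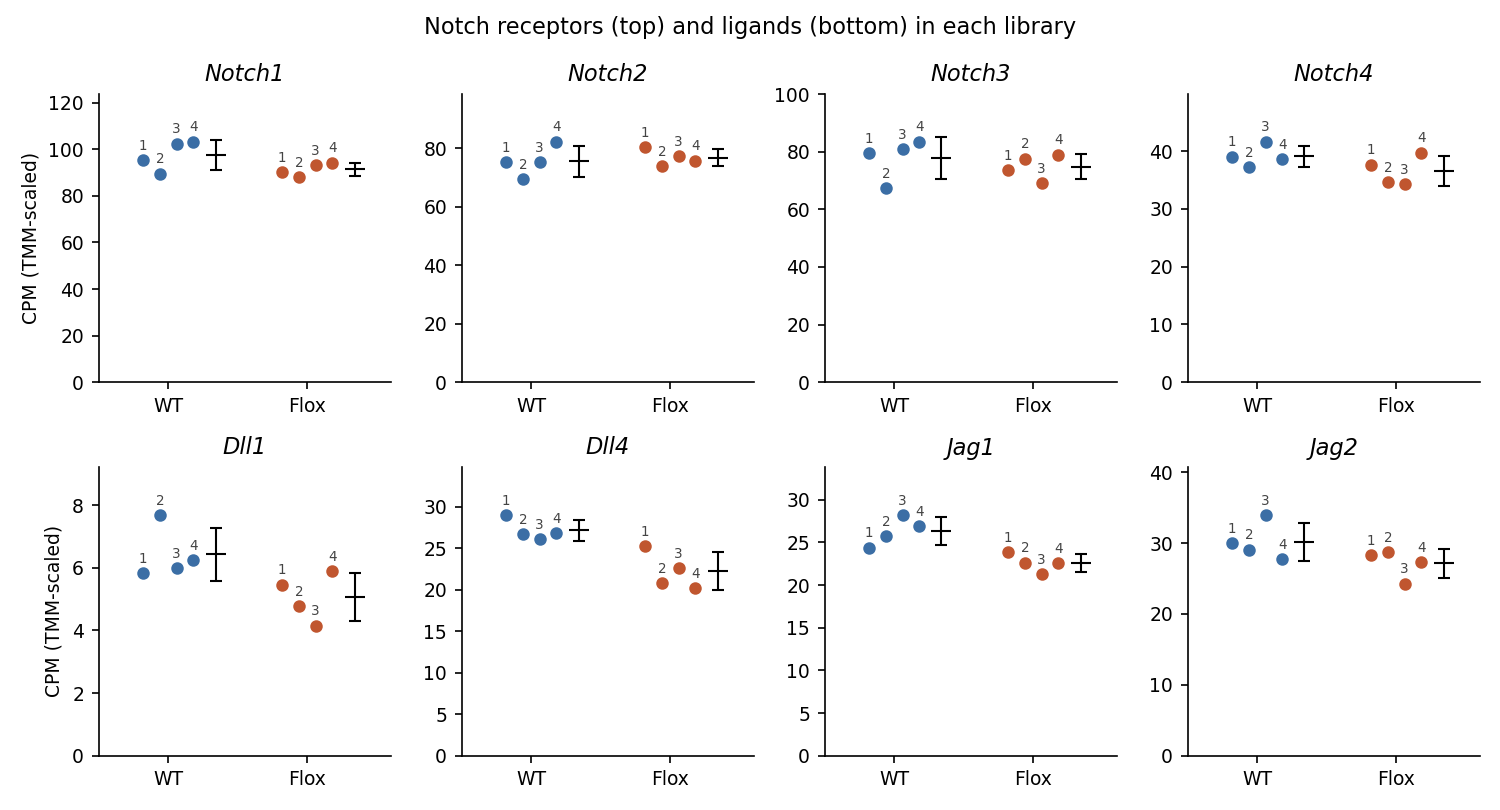
CPM (y axes, linear from 0) of the 4 Notch receptors (top) and 4 ligands (bottom) in each WT (blue) and Flox (orange) library; numbers beside points are replicate numbers, and black bars are group means with the SD. The points of Dll4 and Jag1 do not overlap between the groups, those of Dll1 overlap through 1 Flox library, and the receptors overlap throughout.

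Among the receptors, Notch1 is the main receptor of endothelium and endocardium. Notch1 (ENSMUSG00000026923, GRCm38 chr2:26457903-26516663, minus strand) had CPM of 95.3, 89.5, 102 and 103 in replicates 1 to 4 of WT, and of 90.1, 88.0, 93.2 and 94.2 in replicates 1 to 4 of Flox, the order kept for every gene below. WT libraries 1, 3 and 4 lay above every Flox library, but WT library 2 lay below 3 of them, and the groups overlapped. The means were 97.6 ± 6.48 and 91.4 ± 2.82 CPM (SD, n = 4), and the log2 fold change was -0.10 (SE 0.0447, 95% interval -0.19 to 0.00, edgeR adjusted p = 0.480). Because the RNA came from whole ventricles, fewer cells of a type and less RNA per cell cannot be told apart for this gene or for any that follows.

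Notch4, the receptor expressed most selectively in endothelial cells, lay at the lowest level of the 4. Notch4 (ENSMUSG00000015468, chr17:34564268-34588503, plus strand) was at 39.0, 37.2, 41.6 and 38.6 CPM in WT libraries, and at 37.6, 34.6, 34.2 and 39.7 CPM in Flox libraries. Flox libraries 2 and 3 lay below every WT library, but Flox library 4 lay above 3 of the 4. The log2 fold change was -0.10 (SE 0.0533, 95% interval -0.22 to 0.01, edgeR adjusted p = 0.550).

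Notch2 is expressed widely, in heart muscle progenitors, valves and outflow tract among other tissues, and Notch3 marks pericytes and vascular smooth muscle. Notch2 (ENSMUSG00000027878, chr3:98013527-98150361, plus strand) was at 75.2, 69.3, 75.2 and 82.2 CPM in WT and at 80.4, 73.7, 77.2 and 75.6 CPM in Flox libraries. The Flox values lay inside the WT range, and Notch2 was the only member with a higher mean in Flox libraries (log2 fold change 0.02, SE 0.0470, 95% interval -0.08 to 0.12, edgeR adjusted p = 0.923). Notch3 (ENSMUSG00000038146, chr17:32120820-32166852, minus strand) was at 79.5, 67.4, 81.0 and 83.5 CPM in WT and at 73.6, 77.6, 69.2 and 78.9 CPM in Flox libraries. Its Flox values were again inside the WT range, in which WT library 2 was the lowest. The log2 fold change was -0.06 (SE 0.0612, 95% interval -0.19 to 0.07, edgeR adjusted p = 0.813). The intervals reached down to -0.19 for Notch1 and Notch3 and to -0.22 for Notch4 on the log2 scale, so they do not show that receptor RNA was equal in both groups.

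Dll4 is the Delta-like ligand of arterial endothelium, sprouting vessels and early endocardium. Dll4 (ENSMUSG00000027314, chr2:119325784-119335962, plus strand) was at 29.0, 26.7, 26.1 and 26.8 CPM in WT libraries, and at 25.3, 20.8, 22.6 and 20.2 CPM in Flox libraries. Every Flox library lay below every WT library, with the closest values in WT library 3 and Flox library 1. The means were 27.2 ± 1.27 and 22.2 ± 2.28 CPM (SD, n = 4), a fold of 0.819, and the log2 fold change was -0.29 (SE 0.0673, 95% interval -0.43 to -0.14). Its unadjusted p was the 166th smallest of all tested genes, and the edgeR adjusted p = 0.0869 missed the threshold. The side of the threshold on which Dll4 fell depended on the setting. DESeq2 gave an adjusted p of 0.0301, and without Flox library 1 edgeR gave an adjusted p of 0.0486, with a log2 fold change of -0.35, where 0.205% of all genes passed. Leaving out any other library gave edgeR adjusted p-values of 0.125 to 0.225. In edgeR the adjusted p was 0.110 with a correction for GC content and 0.273 with the Y-linked sum as a covariate.

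Jag1 is a ligand of endothelium, mural cells and, in the maturing ventricular wall, the myocardium. Jag1 (ENSMUSG00000027276, chr2:137081456-137116644, minus strand) was at 24.4, 25.7, 28.2 and 26.9 CPM in WT libraries, and at 23.9, 22.6, 21.3 and 22.5 CPM in Flox libraries. The groups did not overlap, though Flox library 1 came close to WT library 1. The means were 26.3 ± 1.64 and 22.6 ± 1.06 CPM (SD, n = 4), a fold of 0.857, and the log2 fold change was -0.22 (SE 0.0563, 95% interval -0.34 to -0.10, edgeR adjusted p = 0.121). It held rank 217 by unadjusted p among all tested genes.

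Jag2 is the second Jagged ligand of the ventricular myocardium and of vessels. Jag2 (ENSMUSG00000002799, chr12:112907819-112929776, minus strand) was at 30.0, 29.1, 33.9 and 27.7 CPM in WT libraries, and at 28.3, 28.7, 24.3 and 27.3 CPM in Flox libraries. Flox libraries 1 and 2 lay above WT library 4, so the groups overlapped, while Flox library 3 was the lowest and WT library 3 the highest of all. The log2 fold change was -0.15 (SE 0.0690, 95% interval -0.30 to -0.0041, edgeR adjusted p = 0.458).

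Dll1, a Delta-like ligand of arterial endothelium in later development and of many other embryonic tissues, was the scarcest member, with 89.4 to 174 expected counts per library. Dll1 (ENSMUSG00000014773, chr17:15367354-15376872, minus strand) was at 5.83, 7.68, 6.0 and 6.24 CPM in WT libraries, and at 5.46, 4.78, 4.15 and 5.89 CPM in Flox libraries. Flox library 4 lay above WT library 1, and no other values crossed. The log2 fold change of -0.35 was the largest of the 8 and also the least precise (SE 0.131, 95% interval -0.64 to -0.07, edgeR adjusted p = 0.352).

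Summed CPM of the 4 ligands was 89.2, 89.2, 94.2 and 87.7 in WT libraries and 82.9, 76.9, 72.3 and 75.9 in Flox libraries, a sum in which long transcripts weigh more than short ones. Every Flox library lay below every WT library, with means of 90.1 ± 2.86 and 77.0 ± 4.39 CPM (SD, n = 4). Since the 4 ligands were lower in the Flox libraries gene by gene, the sum restates their values and was not tested. For the receptors the sums were 290.1 ± 19.3 CPM for WT and 279 ± 7.03 CPM for Flox (SD, n = 4), and the groups overlapped. WT library 2 had the lowest receptor sum of all 8 libraries, at 263 CPM, beside a ligand sum of 89.2 CPM.

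**Figure D2:**
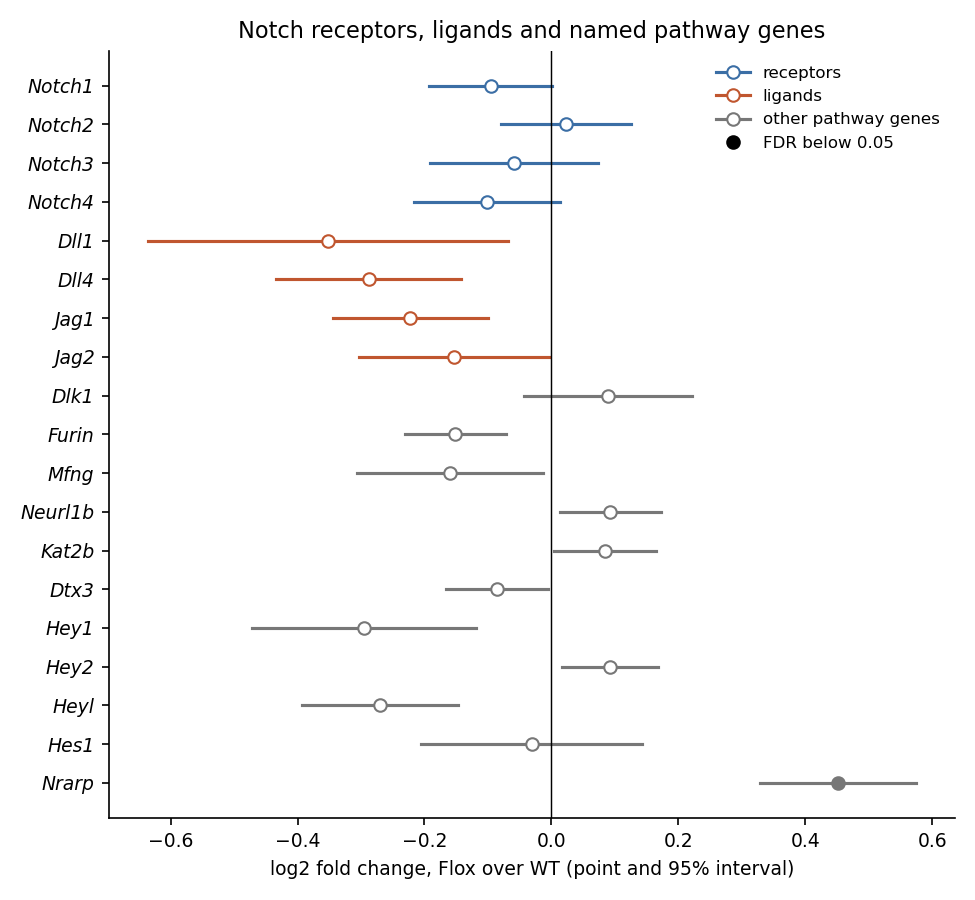
Log2 fold change of Flox over WT (x axis; points, with 95% confidence intervals as lines) for the receptors (blue), the ligands (orange) and the named genes of the pathway (grey); a filled point passed FDR 0.05. The ligands lie between -0.35 and -0.15, the receptors between -0.10 and 0.02, and Nrarp at 0.45 is the only filled point.

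Because reads scale with transcript length, levels of different genes were compared as CPM per kilobase of annotated exon sequence. Among the receptors in WT libraries, Notch3 stood highest at 9.62 ± 0.885 CPM per kilobase (SD, n = 4). Notch2 followed at 7.0 ± 0.489 and Notch1 at 6.86 ± 0.455, which did not differ beyond their spread, and Notch4 came last at 4.85 ± 0.231. Among the ligands Dll4 stood highest at 7.05 ± 0.329 CPM per kilobase, near Notch2 and Notch1. Jag1 at 4.52 ± 0.281 and Jag2 at 4.33 ± 0.384 did not differ beyond their spread and lay near Notch4, and Dll1 at 1.53 ± 0.201 was lowest. In Flox libraries the order was Dll4 at 5.77 ± 0.593, Jag2 at 3.89 ± 0.289, Jag1 at 3.87 ± 0.182 and Dll1 at 1.2 ± 0.181 CPM per kilobase (SD, n = 4), with Jag1 and Jag2 again inseparable.

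The order depended on the length used for Notch1, whose annotated exons add up to 14232 bases while its longest annotated transcript has 9488. With the longest transcript as the length, Notch1 was the highest receptor at 10.3 ± 0.683 CPM per kilobase in WT libraries, beside Notch3 at 9.71 ± 0.893, and Jag2 at 5.91 ± 0.524 lay above Jag1 at 4.69 ± 0.291 (SD, n = 4). Dll4 was the highest and Dll1 the lowest ligand with both lengths and in both groups. By exon length Dll4 made up 40.5% ± 2.25 of ligand RNA in WT and 39.1% ± 2.78 in Flox libraries (SD, n = 4). The shares of Jag1 were 25.9% and 26.3%, those of Jag2 24.8% and 26.4%, and those of Dll1 8.76% and 8.15%, so that the make-up of the ligands moved by less than the spread between libraries. The ratio of receptor to ligand RNA per kilobase was 1.63, 1.48, 1.64 and 1.76 in WT libraries and 1.72, 1.85, 1.90 and 1.96 in Flox libraries. Flox library 1 lay below WT library 4, and the means were 1.63 ± 0.114 and 1.86 ± 0.102 (SD, n = 4).

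**Figure D3:**
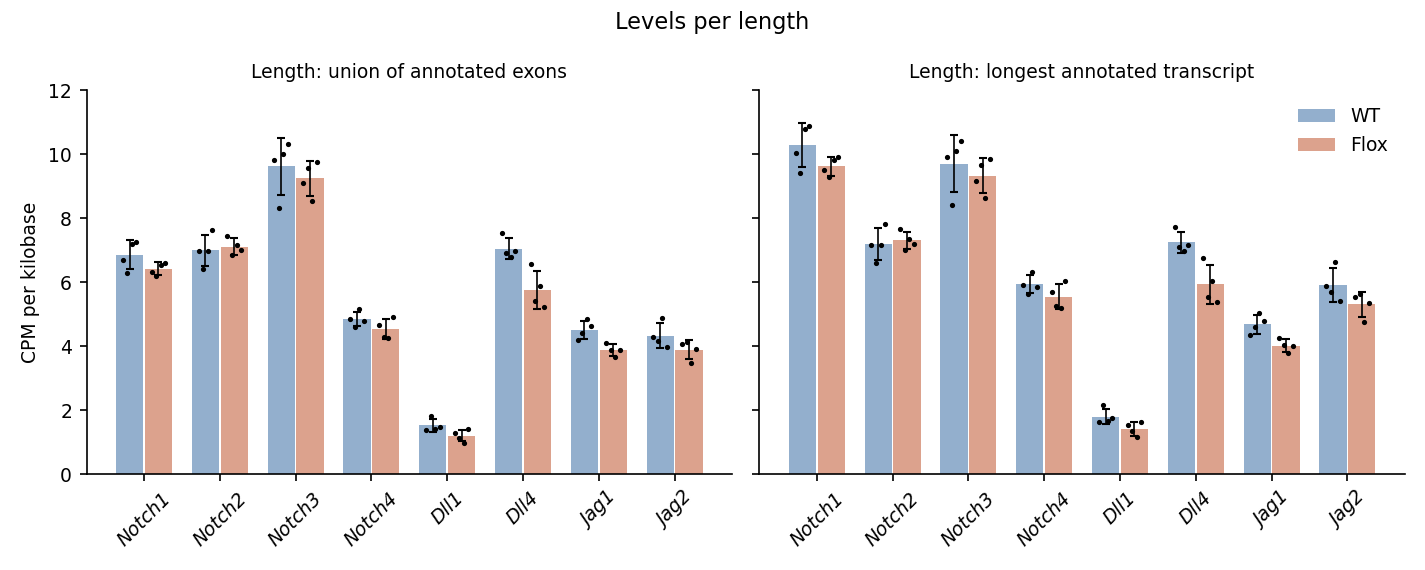
CPM per kilobase (y axis, from 0) of each member in WT (blue) and Flox (orange) libraries, by the union of annotated exons (left) and by the longest annotated transcript (right); bars are means, lines the SD and dots the 4 libraries. Notch1 moves from 6.86 to 10.3 in WT libraries with the length used, whereas Dll4 is the highest and Dll1 the lowest ligand in both.

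The sequences just before the transcription starts of Dll4 and Jag1 are given, since these were the members whose groups did not overlap. RefSeq windows of 250 bases before to 50 after each start (GRCm38.p6) matched all 8 genes, with 9 windows because Dll1 has 2. Only bases that lie before the annotated transcripts are printed, 5′ to 3′ on the gene's strand, and capitals mark the GC box GGGCGG and the CCAAT box CCAAT on either strand. Dll4 is shown at chr2:119325534-119325783 (plus strand) and Jag1 at chr2:137116645-137116770 (minus strand).
Dll4: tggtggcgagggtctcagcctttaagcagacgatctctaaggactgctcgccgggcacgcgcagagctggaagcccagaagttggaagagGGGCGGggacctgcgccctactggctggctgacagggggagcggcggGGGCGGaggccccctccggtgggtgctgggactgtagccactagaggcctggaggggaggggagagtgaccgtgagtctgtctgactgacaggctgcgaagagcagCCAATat
Jag1: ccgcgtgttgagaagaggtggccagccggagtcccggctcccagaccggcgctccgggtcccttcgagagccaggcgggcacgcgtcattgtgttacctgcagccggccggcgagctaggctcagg
The Dll4 window held 2 GC boxes and 1 CCAAT box, and the Jag1 window held neither. GC boxes were also found in the windows of Notch1 (5), Notch2 (7), Notch3 (4) and Jag2 (5), but not in those of Notch4 and Dll1, and 35.7% of all 32851 promoter windows held at least 1. The CCAAT box was also found in a window of Dll1 (2), in no window of the other members, and in 37.4% of all windows. The RBPJ core TGGGAA, the E-box CACGTG bound by HEY and HES proteins and the ETS core CCGGAA, searched on both strands, were in 25.6%, 7.15% and 14.9% of all windows and in 0 of the 9 windows of the members. None of these motifs contains another, and a missing match says only that these letters are not in these windows.

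Several members share exonic bases with another annotated gene, and whether counting used the strand is not given in the sources used here. Dll1 shares 867 bases (20.6% of its exons) with A930024N18Rik on the other strand, whose mean CPM were 0.235 for WT and 0.214 for Flox. Dll4 shares 214 bases (5.56%) with Gm14207, at 0.728 and 0.51 CPM, and Notch1 shares 1068 bases (7.50%) with 0610009E02Rik, at 3.71 and 2.83 CPM. These partners were at low levels beside the members. When overlapping genes were summed, an alternative added after the data were seen, the log2 fold change was -0.29 for Dll4 (edgeR adjusted p = 0.0746) and -0.34 for Dll1. RSEM divides reads that match several genes, and the values of Notch1, Notch3 and Dll1 were not whole in 100% of the libraries. The share was 75% for Notch2, 50% for Dll4 and 0% for Notch4, Jag1 and Jag2.

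Endothelial markers also had lower means on balance. Of 12 endothelial markers, 10 had lower means in Flox libraries, 8 lay at an unadjusted p below 0.05, 5 did not overlap between the groups and 0 passed FDR 0.05 in edgeR, with a median log2 fold change of -0.12. Over all tested genes the shares of the last 3 were 10.5%, 6.05% and 0.526%. The 5 without overlap were Kdr (-0.17), Tie1 (-0.17), Esam (-0.15), Cldn5 (-0.17) and Erg (-0.19), of which Kdr and Tie1 encode endothelial receptor kinases and Erg an endothelial transcription factor. Emcn, an endothelial sialomucin singled out after its values were seen, was among the 8 and had a higher mean in Flox libraries (0.18). Pecam1 was at 193 ± 4.71 and 181 ± 6.92 CPM and Cdh5 at 285 ± 4.39 and 287 ± 8.51 CPM (SD, n = 4). The sum of the 12 ranged from 1477 to 1517 CPM in WT and from 1371 to 1479 CPM in Flox libraries, and none of the 12 was at 0. None of the Notch genes is among the 12.

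Per 100 CPM of the endothelial sum, Dll4 was at 1.96, 1.81, 1.77 and 1.77 CPM in WT libraries and at 1.76, 1.47, 1.65 and 1.37 CPM in Flox libraries. The groups did not overlap, though WT library 3 and Flox library 1 nearly met, and the means were 1.82 ± 0.0893 and 1.56 ± 0.179 (SD, n = 4). Jag1 was at 1.77 ± 0.109 and 1.58 ± 0.0609 on the same scale and overlapped between the groups, as did Dll1, Jag2 and each receptor. The ligand sum per 100 CPM was 6.05 ± 0.246 in WT and 5.4 ± 0.278 in Flox libraries (SD, n = 4), and its lowest WT value of 5.784 lay just above its highest Flox value of 5.778. The receptor sum was 19.5 ± 1.16 and 19.6 ± 0.275. With the mean log2 level of the 12 markers as a covariate, 0 members and 0 of all genes passed FDR 0.05 in edgeR (880 genes at an unadjusted p below 0.05). That level was 6.54 to 6.57 in WT and 6.43 to 6.51 in Flox libraries, so it separated the groups by itself and left the fit little to estimate. In that fit the log2 fold change was -0.40 for Dll4, -0.12 for Jag1 and -0.07 for Dll1, and 0.20 for Notch3.

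**Figure D4:**
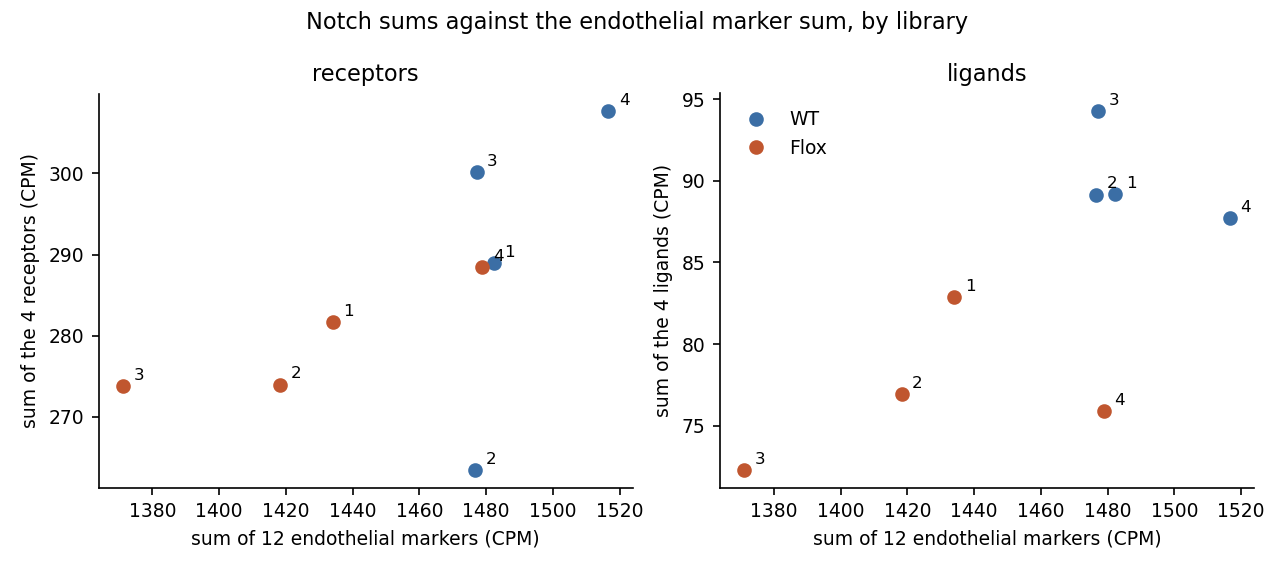
Summed CPM of the 4 receptors (left) and the 4 ligands (right) on the y axes against summed CPM of 12 endothelial markers on the x axes, 1 point per library, with WT in blue, Flox in orange and replicate numbers beside the points; neither axis starts at 0. Flox library 4, at 1479 CPM of markers, lies within the WT range of the marker sum and has a ligand sum of 75.9 CPM, below all WT libraries; its mean log2 level of the same markers, 6.51, lies below all WT libraries.

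Other cell types were examined in the same way, beside 10.5% of all tested genes below p 0.05 unadjusted and 6.05% not overlapping between the groups. All 6 endocardial markers had lower means in Flox libraries, with a median log2 fold change of -0.05 and 0 past FDR 0.05 in edgeR (2 at an unadjusted p below 0.05), and their sum was 484 to 535 CPM in WT and 475 to 522 CPM in Flox libraries. Of 9 tested mural markers, which label pericytes and smooth muscle, 8 had lower means (median -0.12), 5 lay below p 0.05 unadjusted and 0 passed; Kcnj8, a pericyte potassium channel, did not overlap between the groups (-0.24). Acta2, the smooth muscle actin and the most abundant of the list, was among the 5 and had a higher mean in Flox libraries (0.12), a direction noted after its values were seen. The mural sum, made up mostly of Acta2, was 1853 to 1970 CPM in WT and 1898 to 2030 CPM in Flox libraries. Per 100 CPM of that sum, Dll4, Jag1, Jag2 and the ligand sum did not overlap between the groups, while Dll1 and each receptor did. Jag2 overlapped in CPM and per 100 CPM of the endothelial sum, but not with the mural sum as divisor. Acta2 made the mean of that divisor higher in Flox libraries, although 8 of the 9 tested mural markers had lower means. The higher divisor lowered the ratios of Flox libraries on average, so the mural scale does not measure ligand RNA relative to mural cells. Jag1 was at 1.37 ± 0.0935 in WT and 1.14 ± 0.0457 in Flox libraries on that scale (SD, n = 4). Of 10 cardiomyocyte markers 1 passed, the transcription factor Nkx2-5, which rose (log2 fold change 0.21, edgeR adjusted p = 0.0194). In that list 5 had higher and 5 lower means, 2 lay below p 0.05 unadjusted, and the median was 0.01. Beside Nkx2-5, the other of the 2 was Myh6, singled out after its values were seen, which fell (-0.19, edgeR adjusted p = 0.134). The 7 epicardial markers all had higher means (median 0.12, 0 passed, 2 below p 0.05), and Upk3b among them did not overlap between the groups (0.15). Atrial markers were lower in 6 of 6 (median -0.15, 0 passed, 1 below p 0.05), and fibroblast, macrophage and erythroid lists had medians of -0.04, 0.07 and 0.12 with 0 passed. The part of these cell types in the values of the ligands was not tested.

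The rest of the pathway gave few calls. Of 54 genes on 7 lists, 51 were tested, of which 1 passed FDR 0.05 in edgeR, 11 lay at an unadjusted p below 0.05 and 6 did not overlap between the groups, with 18 higher and 33 lower in Flox libraries and a median log2 fold change of -0.02. The shares of all tested genes were 0.526%, 10.5% and 6.05%.

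Among genes that make ligands and receptors active, 0 passed. Of 6 genes that ubiquitinate ligands or drive their endocytosis, Mib1, whose product must mark a ligand before it can signal, was at 111 ± 5.17 and 109.8 ± 4.56 CPM (SD, n = 4). Neurl1b had the smallest p of these 6 (log2 fold change 0.09, edgeR adjusted p = 0.393). Neurl1a, singled out after its values were seen, had the largest difference of that list but at 1.76 and 1.44 CPM a wide error (-0.30, SE 0.203, edgeR adjusted p = 0.654). Of 5 glycosylation genes, Mfng, a Fringe enzyme that alters which ligands a receptor responds to, had a log2 fold change of -0.16 (edgeR adjusted p = 0.427) and its groups did not overlap. Of 10 cleavage genes, Furin, the protease that cuts the receptor on its way to the surface, was at 144, 136, 135 and 138 CPM in WT and at 126, 122, 119 and 132 CPM in Flox libraries. Every Flox value lay below every WT value (log2 fold change -0.15, SE 0.0368, edgeR adjusted p = 0.10). Ncstn, which encodes the γ-secretase subunit nicastrin and was singled out after its values were seen, did not overlap either (-0.12, edgeR adjusted p = 0.221). Of the further Delta-like ligands, Dll3 and Dlk2 had too few counts to be tested, and Dlk1 had a log2 fold change of 0.09 (edgeR adjusted p = 0.661).

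In the nucleus, Rbpj was at 78.1 ± 3.70 and 75.1 ± 3.55 CPM (SD, n = 4). Kat2b, an acetyltransferase of the activation complex, had the smallest p of 10 genes (log2 fold change 0.08, edgeR adjusted p = 0.444). Dtx3, a ubiquitin ligase of the Deltex family, had the smallest p of 9 turnover genes (log2 fold change -0.09, edgeR adjusted p = 0.436). None of the genes of either list passed, and 1 of each lay below p 0.05 unadjusted.

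Of 9 tested target genes, 3 had higher and 6 lower means in Flox libraries, 5 lay at an unadjusted p below 0.05 and 3 did not overlap. Heyl, a Hey-family repressor found in mural cells, was at 27.4, 25.2, 27.5 and 30.0 CPM in WT and at 21.9, 22.4, 23.5 and 23.7 CPM in Flox libraries. The groups did not overlap, and the edgeR adjusted p = 0.0598 lay just above the threshold (log2 fold change -0.27, SE 0.0570). Hey1, the Hey gene of endothelium and endocardium, was at 16.4, 15.1, 17.6 and 18.1 CPM in WT and at 13.5, 14.2, 12.1 and 15.1 CPM in Flox libraries. Flox library 4 reached WT library 2, and the log2 fold change was -0.30 (SE 0.0815, edgeR adjusted p = 0.158). Hey2, which marks compact myocardium, was at 149.6, 159.9, 152 and 161 CPM in WT and at 166, 166, 171 and 161 CPM in Flox libraries, with the groups meeting closely but not overlapping (0.09, edgeR adjusted p = 0.356). Hes1 means lay within the spread of either group (-0.03, edgeR adjusted p = 0.943), and Hes5 had too few counts to be tested. Bmp10, a growth factor of the trabeculae that was singled out after its values were seen, had the largest difference of the list, -0.55 on the log2 scale (SE 0.117, edgeR adjusted p = 0.0606), from means of 109 ± 13.3 and 75.0 ± 15.2 CPM (SD, n = 4).

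Nrarp, a feedback inhibitor induced by Notch signalling, was the only pathway gene that passed. It was at 32.3, 29.3, 32.6 and 35.5 CPM in WT and at 40.9, 45.5, 45.8 and 45 CPM in Flox libraries. Every Flox value lay above every WT value, and Nrarp rose by a log2 fold change of 0.45 (SE 0.0569, 95% interval 0.33 to 0.57, edgeR adjusted p = 0.0109). Reads of Nrarp may not be separable from those of an overlapping gene. Gm38287, an antisense gene that shares 2051 bases with Nrarp (79.4% of the exons of Nrarp), had means of 12.6 ± 2.28 CPM for WT and 3.42 ± 2.88 CPM for Flox (SD, n = 4). With both summed, the log2 fold change was 0.08 and the edgeR adjusted p = 0.571. A fall of Gm38287 RNA and a different division of reads between the overlapping genes cannot be told apart from these counts.

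The covariation of the members among libraries was described after the mean of each group had been subtracted, over the 8 libraries, which share tissue, depth and dissection. All receptor pairs had a positive correlation, lowest between Notch2 and Notch4 (0.24), with Pearson's r of 0.73 between Notch1 and Notch2, 0.67 between Notch1 and Notch3 and 0.50 between Notch1 and Notch4. WT library 2 was the lowest WT library for every receptor, and its part in these correlations was not tested. Among ligands, r was 0.61 between Jag1 and Jag2 and -0.06 between Dll4 and Jag1, and between Dll1 and Dll4 it was -0.17. The groups differed in this: WT library 1 had the highest Dll4 and the lowest Jag1 of the WT libraries. Flox library 1 had the highest level of both among the Flox libraries.

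By the same measure, 11957 genes with a mean log2 CPM of at least 1 were searched for those most like each member, and genes named only by a model, Rik or clone number were passed over. Genes close to Notch1 were Daam2 (r = 0.98) and Cyp4v3 (0.97), those closest to Notch2 were Ptdss1 (0.98), Nudt18 (0.98) and Evi5l (0.96), those closest to Notch3 were Ttc7, Ngly1 and Tent4a (each 0.97), and those closest to Notch4 were Eloa (0.97), Poli (0.97) and Ank (0.96). For Dll4 they were Tm9sf1, Cbx5 and Ankhd1 (each 0.97), for Jag1 R3hcc1, Eef2k and Map3k12 (each 0.96), for Jag2 Cmbl (0.99), Arhgap10 (0.96) and B2m (0.96), and for Dll1 Nxn, Marveld1 and Kctd20 (each 0.97). With 8 libraries and so many genes searched, the highest values are large by selection, and no member was among the 3 closest genes of another.

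The directions of the ligands held across the settings tried, all of which reuse the same libraries. All 4 ligands had lower means in Flox libraries in each of the 21 alternatives that refitted the data (the others changed the threshold alone), with log2 fold changes of -0.40 to -0.25 for Dll4, -0.26 to -0.12 for Jag1, -0.43 to -0.07 for Dll1 and -0.19 to -0.06 for Jag2. Notch1 was lower in all 21 as well, from -0.14 to -0.01, while Notch2, Notch3 and Notch4 changed sign in some. For Notch1 it was -0.014 with the Y-linked sum as a covariate and -0.027 with the endothelial level, against -0.10 as reported. Without WT library 2, all 4 receptors were lower in Flox libraries. Their log2 fold changes were then -0.14 for Notch1, -0.016 for Notch2, -0.12 for Notch3 and -0.12 for Notch4. When the Y-linked sum entered the fit as a covariate, 2 of the 4 ligands lay at an unadjusted p below 0.05. Leaving out each library in turn kept Dll4 between -0.35 and -0.25. Since the groups of Dll4 and Jag1 did not overlap, leaving out a library had little room to change their directions.

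**Figure D5:**
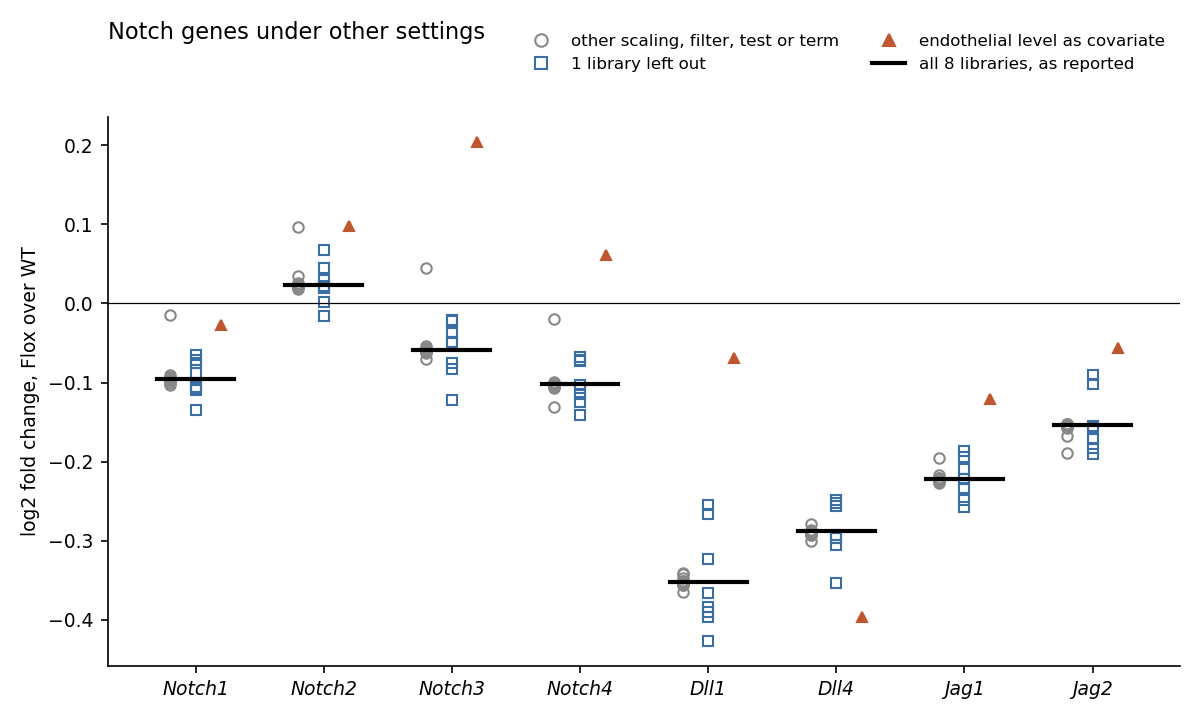
Log2 fold change of Flox over WT (y axis) of each member under the other settings: black bars are the values with all 8 libraries, grey circles other scalings, filters, tests or model terms, blue squares fits without 1 library, and orange triangles the fit with the endothelial level as a covariate. The ligands stay below 0 under every setting shown, whereas Notch2, Notch3 and Notch4 cross it.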

How the data were processed

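Polyadenylated RNA of 8 ventricle samples, each described as 1 ventricle, was made into directional libraries. The deposited table held expected counts per Ensembl gene, estimated by the authors with RSEM (RSEM 1.3.1 and cutadapt in the submitters' processing notes), on GRCm38 with Ensembl release 91 by the table's name. The aligner and strand setting are not given in the sources used here, and 18.1% of values were not whole. Symbols, positions and lengths came from GENCODE M21 on the same assembly (53274 of 53465 identifiers matched), and promoter windows from RefSeq.

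Expected counts were rounded, filtered with filterByExpr and scaled by TMM. The comparison of WT and Flox used the two-sided quasi-likelihood F test of edgeR 4.0.16 in R 4.3.3, with group as the only term and Benjamini-Hochberg adjustment over all tested genes. SEs were derived from the F statistic and intervals cover 95%. CPM use TMM-scaled totals, and likeness used log2 CPM with a prior count of 2. The fit was tested on simulated data.

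Members and lists were chosen with earlier results of these data known. Named genes were all members, Nrg1, pathway genes past the threshold or with the smallest p of their list, Hey1, Hey2, Heyl, Hes1 and Nrarp, the 3 genes most like each member (1 of which is not reported here), and, of the cell type lists, Pecam1, Cdh5 and genes whose groups did not overlap. Nothing says that the libraries came from separate litters, so p-values measure the spread between these libraries. No library copied another (lowest chi-square over its degrees of freedom 3.01). Alternatives were RLE, upper quartile and no scaling factors, 2 other filters, the likelihood ratio test, DESeq2 1.42.0, limma 3.58.1 (voom), a replicate block, Y-linked and endothelial covariates, a GC correction, FDR 0.1 and 0.01, and leaving out each library. Figures were drawn with matplotlib 3.10.9.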

Additional observations from a re-analysis of the deposited data

Results flagged for a closer look

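In 1 of 40 groups of 4 libraries examined, a single library stood apart by Dixon's criterion, and chance alone gives about 2 of 40. It was Nrarp in Flox library 1, at 40.9 CPM, where the other Flox libraries lay between 45 and 45.8 CPM. The overlapping antisense gene Gm38287 was at 7.53 CPM in that library, its highest level in the Flox group, and the part of that overlap was not tested. No receptor or ligand had a library that stood apart in this way.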

How the results depend on the processing

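With 4 libraries per group, a log2 fold change had an SE of 0.0447 to 0.0690 for 7 of the members and of 0.131 for Dll1, and the differences of Dll4 and Jag1, several times their SE, did not pass, so that differences of this size could be missed. Over 23 alternatives, of which 21 refitted the data and the rest changed the threshold alone, 173 of the 184 member fold changes kept their direction and their side of the threshold, 7 newly passed and 4 changed sign, and the cause of each change was not tested. The number of members past the threshold was 0 as reported. It was 2 without a filter and with the likelihood ratio test (Dll4 and Jag1 in both), 1 with DESeq2, 1 at FDR 0.1 and 1 without Flox replicate 1 (Dll4 each time). Leaving out a library gave 0 to 1 members, 1 to 3 pathway genes and 11 to 142 of all genes, with 11 without Flox replicate 3 and 142 without Flox replicate 4. Pathway genes past the threshold numbered 1 as reported, 5 without a filter, 4 with the likelihood ratio test, 3 with DESeq2, 3 at FDR 0.1 (Heyl, Nrarp and Bmp10), 0 at FDR 0.01, 0 with the endothelial covariate and 0 with overlapping genes summed. Furin joined Nrarp and Bmp10 without Flox replicate 4. All genes past the threshold numbered 81 as reported, 338 without a filter, 242 with the likelihood ratio test, 198 with DESeq2, 190 at FDR 0.1, 3 at FDR 0.01, 16 with the Y-linked covariate and 0 with the endothelial covariate.

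Some values changed sign, among them that of Hey1, which was -0.30 as reported. Notch2 was at -0.016 without WT replicate 2 (range over left-out libraries -0.016 to 0.068). With the Y-linked covariate Notch3 was at 0.044 and Hes1 at 0.081. With the endothelial covariate Notch3 was at 0.20, Notch4 at 0.062, Neurl1b at -0.014, Hey1 at 0.061 and Hes1 at 0.28. Hes1 ranged from -0.074 to 0.019 over left-out libraries.

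Libraries of the 2 groups share replicate numbers. Deviations from the group means correlated at 0.0998, 0.0474, 0.0447 and 0.121 for equal numbers and at -0.0877 to 0.0195 for unequal ones, and every library correlated best with its own number, which is a hint from the data and not part of the design. The libraries were therefore treated as sharing only a number. With the replicate block, 0 members passed, 2 pathway genes passed (Nrarp and Bmp10) and 93 of all genes passed.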
